A study of Mus musculus with 14 samples.

Results

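The Toll-like receptors other than TLR4 were examined in microglia, the macrophages that reside in brain tissue. Of 10 such genes listed (Tlr1, Tlr2, Tlr3, Tlr5, Tlr6, Tlr7, Tlr8, Tlr9, Tlr12 and Tlr13), 9 were measured by an array row that carried that gene's symbol alone, out of 19938 genes with such a row. The genes were chosen by family membership, with earlier results of these data known. Where a gene had several rows the row with the highest mean would have stood for it, and each of the 9 had 1 row. Tlr5, which encodes the flagellin receptor, had no row of this kind in the annotation and was not analysed here.

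The microglia had been sorted from the cortex on the operated side of C57BL/6J males, 12 to 14 weeks old, and each sample was hybridised to 1 Affymetrix Mouse Gene 1.0 ST array. The 14 arrays formed 4 groups: TLR4-/- after ischaemia/reperfusion (I/R, n = 3), TLR4-/- after sham surgery (n = 3), wild type after I/R (n = 4) and wild type after sham surgery (n = 4). In the I/R groups the middle cerebral artery was blocked for 15 min and then reperfused for 72 h, and isoflurane anaesthesia was used for both kinds of surgery. I/R samples are titled IPC, an abbreviation that the labels leave undefined. How the TLR4-/- allele was made, which markers the sort used and whether animals were pooled is not stated in the labels. Nothing states that every sample was a separate mouse, so p-values reflect only sample-to-sample spread, and that spread may be technical.

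Toll-like receptors recognise microbial products and molecules released from injured cells. TLR1, TLR2, TLR5 and TLR6 sit at the cell surface, where TLR2 pairs with TLR1 or TLR6 to bind lipopeptides. TLR3, TLR7, TLR8, TLR9 and TLR13 sit in endosomes and are specialised for nucleic acids, and in the mouse TLR12 recognises profilin of protozoan parasites. The receptors signal through adaptors such as MyD88 and TRIF to NF-kB and interferon regulatory factors, and microglia are among the brain cells known to carry many of them. The comparisons asked how I/R changes these genes and whether the absence of TLR4 alters their level or their change.

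Values are log2 array signals, and a difference of 1 is a 2-fold change. The 95th percentile of 1027 olfactory receptor genes, 4.73, served as the limit of background. Tlr8 had a mean of 4.51 over all arrays, inside that range, and the other 8 genes lay above it. By their means over all arrays, 9 of 9 measured microglia markers, 9 of 9 border-associated macrophage markers and 7 of 9 monocyte markers were above background. At or below it were 9 of 9 neutrophil and 5 of 6 B cell markers. Other lists were split, with 5 of 8 T and NK cell, 3 of 7 dendritic cell and 4 of 6 astrocyte markers at or below it. So were 4 of 6 neuron, 2 of 6 endothelial and 1 of 4 oligodendrocyte markers. The rest of those lists lay above it. Single arrays differed from this, as the neutrophil marker S100a9 reached 7.06 and S100a8 4.94 on a wild-type I/R array. The Tlr4 row gave 7.62 to 8.47 on the 6 TLR4-/- arrays and 8.14 to 8.92 on the 8 wild-type arrays. The deleted part of the gene and the probe positions are not given here, so the genotype labels could not be checked from it. For 8 of the 14 arrays the highest correlation was with an array of another group. For 2 of them, every array of the other genotype correlated more closely than any array of their own group. Wild-type sham array C had r of 0.9872 to 0.9916 with the TLR4-/- sham arrays and at most 0.9865 within its group. TLR4-/- I/R array D had r of 0.9901 to 0.9915 with the wild-type I/R arrays and at most 0.9898 within its group. These 2, named by the letters in their titles and called the arrays that stood apart, were also left out together. Receptor calls that ended or arose without them are given as such, as are pathway calls that ended.

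After I/R some receptor genes rose and others fell. In the mean of both genotypes, 2 of the 9 genes rose, Tlr1 and Tlr2, against 9.61% of all genes called higher, and 3 fell, Tlr7, Tlr9 and Tlr12, against 8.52% called lower (limma, adjusted p under 0.05 over all genes). In TLR4-/- microglia alone, 2 rose (Tlr1 and Tlr2, against 5.04% of all genes) and 1 fell (Tlr9, against 3.13%). In wild-type microglia alone, 1 rose (Tlr2, against 6.15%) and 1 fell (Tlr9, against 3.63%). Of all calls, 62.9% were higher in wild type and 76.8% once each array was centred on its median; in the mean of both genotypes these shares were 53.0% and 66.3%, and in TLR4-/- 61.7% and 71.3%. The median change of the 9 genes was -0.03 in TLR4-/-, -0.15 in wild type and -0.09 in the mean of both, beside medians over all genes of -0.03, -0.06 and -0.05. In sorted bulk samples, fewer cells of a type and less RNA per cell cannot be told apart.

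**Figure D1:**
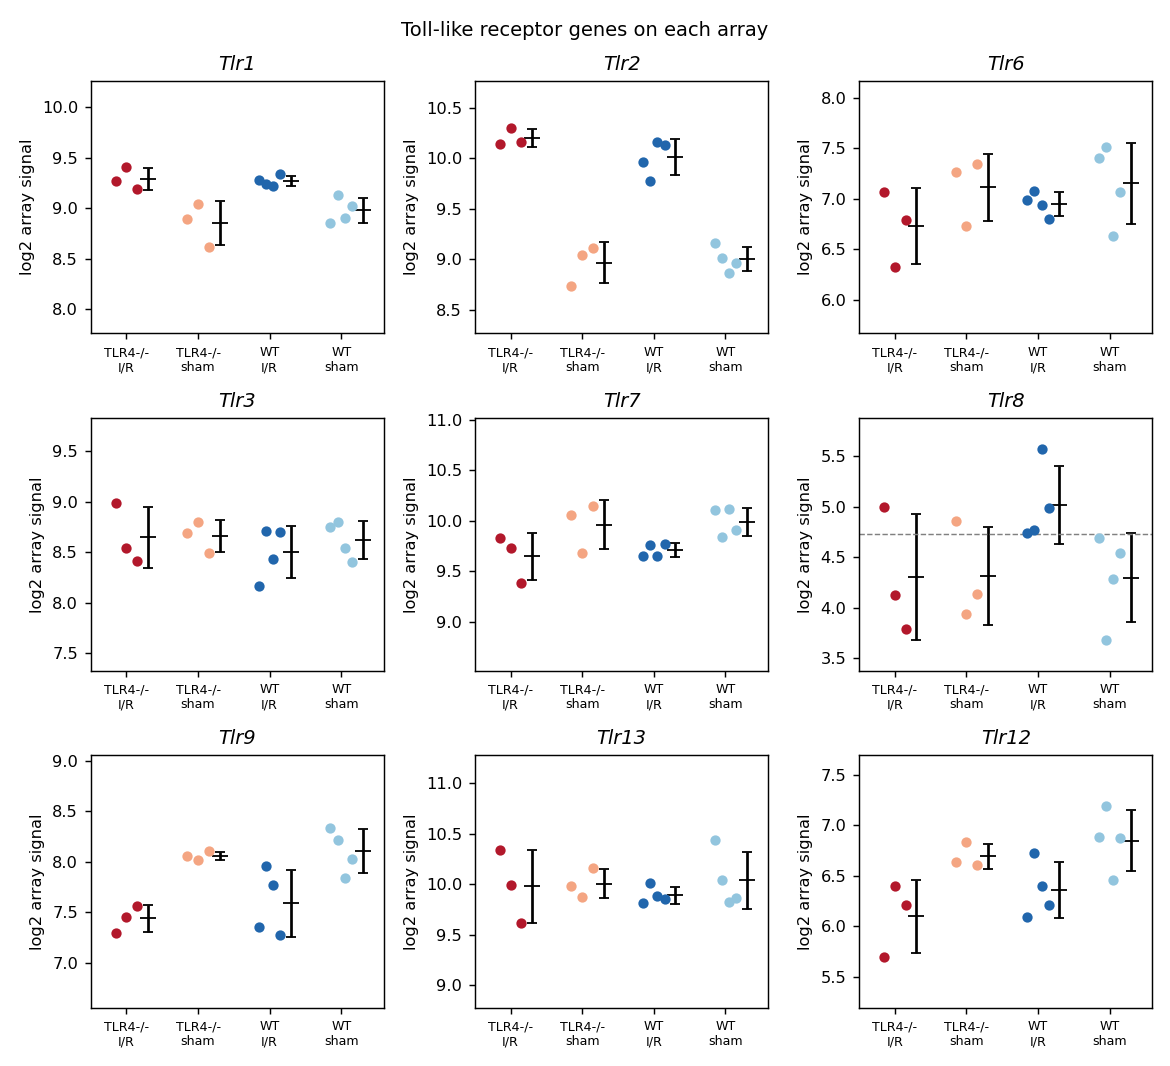
Log2 array signal of the 9 genes on each of the 14 arrays (points), with the mean and SD of each group (black bars); every panel spans the same range and the dashed line in the Tlr8 panel marks the background limit of 4.73. Tlr2 lies at 9.78 or above on every I/R array and at 9.16 or below on every sham array, whereas Tlr3 and Tlr13 overlap between the groups.

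Tlr2, the lipopeptide receptor of the cell surface, had the largest change of the 9 genes. It gave 10.14, 10.30 and 10.16 on the TLR4-/- I/R arrays and 8.73, 9.04 and 9.12 on the TLR4-/- sham arrays. The wild-type arrays gave 9.96, 9.78, 10.16 and 10.13 after I/R and 9.16, 9.02, 8.87 and 8.96 after sham. All 7 I/R arrays were above all 7 sham arrays. The rise was 2.36-fold in TLR4-/- (log2 change 1.24, 95% interval 0.95 to 1.52, limma adjusted p = 1.23e-05) and 2.01-fold in wild type (1.01, 0.76 to 1.25, limma adjusted p = 1.65e-05). In the mean of both genotypes it was 1.12 (SE 0.09, limma adjusted p = 1.11e-07).

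The promoter of Tlr2, which rose, was set beside those of Tlr9, which fell, and of Tlr3 and Tlr6, which were not called, to show where NF-kB and interferon response motifs occur in them. The windows run from 250 bases before to 50 bases after a RefSeq start site (build GRCm38.p6), are written 5′ to 3′ on the gene's strand, and carry matches in capitals. The motifs searched on both strands were NF-kB, by name, and the interferon-stimulated response element (GAAA, any 2 bases, GAAA), and the matches in the Tlr6 window are to the opposite strand. A match is a description of the letters and not of binding.
Tlr2, chr3:83841559-83841858, minus strand: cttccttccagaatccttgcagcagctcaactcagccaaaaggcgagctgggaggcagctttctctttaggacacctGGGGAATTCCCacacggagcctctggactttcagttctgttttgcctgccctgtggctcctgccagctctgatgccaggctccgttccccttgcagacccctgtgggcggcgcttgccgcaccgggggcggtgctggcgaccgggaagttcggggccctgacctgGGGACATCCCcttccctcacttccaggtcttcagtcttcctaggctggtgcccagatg
Tlr9, chr9:106222348-106222647, plus strand: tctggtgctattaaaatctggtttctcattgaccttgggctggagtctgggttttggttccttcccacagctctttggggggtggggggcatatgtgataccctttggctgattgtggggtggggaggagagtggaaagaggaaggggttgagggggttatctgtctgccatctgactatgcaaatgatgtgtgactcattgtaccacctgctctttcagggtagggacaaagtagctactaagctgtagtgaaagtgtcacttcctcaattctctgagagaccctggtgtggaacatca
Tlr3, chr8:45410331-45410630, minus strand: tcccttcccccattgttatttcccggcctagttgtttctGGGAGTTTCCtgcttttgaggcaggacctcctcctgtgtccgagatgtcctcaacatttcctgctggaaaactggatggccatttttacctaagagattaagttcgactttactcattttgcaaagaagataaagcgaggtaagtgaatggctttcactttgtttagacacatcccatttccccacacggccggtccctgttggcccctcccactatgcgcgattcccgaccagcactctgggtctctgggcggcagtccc
Tlr6, chr5:64959117-64959416, minus strand: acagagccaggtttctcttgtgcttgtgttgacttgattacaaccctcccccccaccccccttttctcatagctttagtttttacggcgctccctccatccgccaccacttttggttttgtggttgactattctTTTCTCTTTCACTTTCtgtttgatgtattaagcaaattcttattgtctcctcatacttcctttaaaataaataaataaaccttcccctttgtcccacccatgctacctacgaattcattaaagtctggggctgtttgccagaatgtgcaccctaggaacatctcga

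NF-kB matches were found in 8.46% and the response element in 3.44% of 32851 promoter windows of the mouse genome. The Tlr2 window held NF-kB matches at 2 places, 1 of them made of 2 overlapping matches whose first bases lie 173 and 172 bases before the start site, and 1 beginning 8 bases before it. The Tlr3 window held 1 NF-kB match, starting 211 bases before the start site, and Tlr3 did not pass the test in any comparison. A Tlr6 window held 2 overlapping response elements, and a second Tlr6 window held none. No match to either motif was present in the windows of Tlr1, Tlr8, Tlr9, Tlr12 or Tlr13, and Tlr7 had no entry.

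Tlr1, the partner of TLR2 for triacylated lipopeptides, also rose. It gave 9.27, 9.41 and 9.19 on the TLR4-/- I/R arrays and 8.90, 9.04 and 8.62 on the TLR4-/- sham arrays. Wild-type values were 9.28, 9.24, 9.23 and 9.34 after I/R and 8.86, 9.14, 8.91 and 9.02 after sham. The lowest I/R array, at 9.19, was above the highest sham array, at 9.14. The change was 1.29-fold in the mean of both genotypes (log2 change 0.36, 95% interval 0.19 to 0.54, limma adjusted p = 0.00497), and this call held under all 22 alternatives run. In TLR4-/- alone it was 0.44 (95% interval 0.17 to 0.70, limma adjusted p = 0.0406) and in wild type 0.29 (0.06 to 0.52, limma adjusted p = 0.108). The TLR4-/- call ended without any 1 of the wild-type I/R arrays, any 1 of the TLR4-/- I/R arrays, or either of the TLR4-/- sham arrays A and D (adjusted p between 0.0511 and 0.178) and when the fit held the compared groups alone (0.119).

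Tlr6, the partner of TLR2 for diacylated lipopeptides and the direct neighbour of Tlr1 on chromosome 5, was not called. Its values were 7.06, 6.32 and 6.79 after I/R and 7.27, 6.73 and 7.34 after sham in TLR4-/-. In wild type they were 6.99, 7.07, 6.94 and 6.80 after I/R and 7.40, 7.51, 6.63 and 7.06 after sham. The groups overlapped in both genotypes, and the change in the mean of both was -0.30 (95% interval -0.61 to 0.02, limma adjusted p = 0.200).

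Among the endosomal receptors Tlr9, the sensor of unmethylated CpG DNA, fell. It gave 7.30, 7.46 and 7.56 on the TLR4-/- I/R arrays and 8.05, 8.02 and 8.10 on the TLR4-/- sham arrays, without overlap. Wild-type arrays gave 7.35, 7.96, 7.77 and 7.27 after I/R and 8.34, 8.21, 7.84 and 8.03 after sham. Here I/R array B, at 7.96, lay above sham array C, at 7.84. Tlr9 was 1.48-fold lower in the mean of both genotypes (log2 change -0.57, SE 0.11, limma adjusted p = 0.00192), under all 22 alternatives.

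Within single genotypes the call of Tlr9 rested on individual arrays. The change was -0.62 in TLR4-/- (95% interval -0.98 to -0.25, limma adjusted p = 0.0350) and -0.52 in wild type (-0.83 to -0.20, limma adjusted p = 0.0361). The TLR4-/- call ended without any 1 of the 6 TLR4-/- arrays (adjusted p from 0.0506 to 0.108) and under centring (0.0863). The wild-type call ended without either of the I/R arrays A and D or without any of the sham arrays A, B and D (from 0.0541 to 0.134), under centring (0.104) and when the fit held the compared groups alone (0.0824).

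Tlr7, a sensor of single-stranded RNA, fell slightly. It gave 9.83, 9.73 and 9.39 after I/R and 10.06, 9.68 and 10.14 after sham in TLR4-/-, with overlap. In wild type it gave 9.65, 9.76, 9.65 and 9.77 after I/R and 10.10, 9.84, 10.11 and 9.91 after sham, without overlap. The change was -0.30 in the mean of both genotypes (SE 0.10, limma adjusted p = 0.0382), and neither genotype passed alone (limma adjusted p = 0.230 in TLR4-/- and 0.184 in wild type). The call ended under 12 of 22 alternatives, among them centred arrays (adjusted p = 0.110), both arrays that stood apart left out (0.166), and leaving out single arrays (from 0.0508 to 0.108), namely A, C or D of wild-type I/R, A or C of wild-type sham, C or D of TLR4-/- I/R, and A or D of TLR4-/- sham.

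Tlr8, the neighbour of Tlr7 on the X chromosome, was at the limit of detection. It gave 5.00, 4.12 and 3.79 after I/R and 4.86, 3.94 and 4.14 after sham in TLR4-/-. In wild type it gave 4.74, 4.77, 5.57 and 4.99 after I/R and 4.69, 3.68, 4.28 and 4.54 after sham. The 4 wild-type I/R arrays were just above the background limit or higher and all wild-type sham arrays below it. The wild-type change of 0.72 did not pass (95% interval 0.13 to 1.31, limma adjusted p = 0.125), nor did the TLR4-/- change of -0.01 (-0.68 to 0.67, limma adjusted p = 0.995).

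Tlr3 and Tlr13, which sense double-stranded RNA and bacterial ribosomal RNA, did not pass in any comparison. Tlr3 gave 8.99, 8.54 and 8.41 after I/R and 8.69, 8.80 and 8.49 after sham in TLR4-/-, and 8.16, 8.71, 8.43 and 8.70 after I/R and 8.75, 8.80, 8.54 and 8.40 after sham in wild type. Tlr13 gave 10.34, 9.99 and 9.61 after I/R and 9.98, 9.87 and 10.16 after sham in TLR4-/-, and 9.81, 10.01, 9.88 and 9.86 after I/R and 10.44, 10.04, 9.82 and 9.86 after sham in wild type. The arrays of both genes overlapped in both genotypes. In the mean of both genotypes the interval of the change ran from -0.32 to 0.18 for Tlr3 and from -0.34 to 0.16 for Tlr13.

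Tlr12, the profilin receptor of the mouse, also fell. It gave 5.70, 6.40 and 6.20 after I/R and 6.63, 6.83 and 6.60 after sham in TLR4-/-, without overlap. In wild type it gave 6.09, 6.72, 6.40 and 6.21 after I/R and 6.88, 7.19, 6.45 and 6.87 after sham, where I/R array B lay above sham array C. The change in the mean of both genotypes was -0.54 (SE 0.13, limma adjusted p = 0.00896, under all 22 alternatives), or 1.46-fold lower. Neither genotype passed alone, at -0.59 in TLR4-/- (limma adjusted p = 0.0919) and -0.49 in wild type (limma adjusted p = 0.0944). The wild-type change did pass with array weights (-0.56, adjusted p = 0.0360), without I/R array B (-0.61, 0.0422), without sham array C (-0.62, 0.0351) and without both arrays that stood apart (-0.62, 0.0416).

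**Figure D2:**
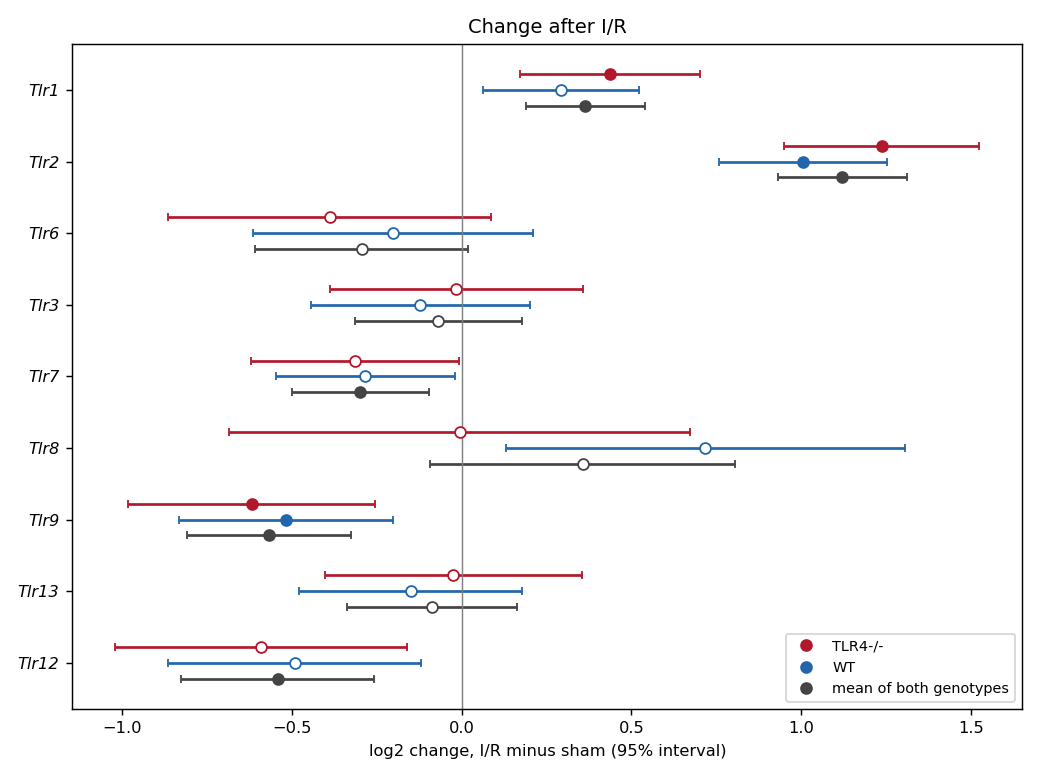
Log2 change of each gene after I/R relative to sham in TLR4-/-, in wild type and in the mean of both, with 95% intervals from limma; filled points passed at an adjusted p under 0.05. Tlr2 stands at 1.24 and 1.01 in the separate genotypes, and Tlr9 at -0.62 and -0.52.

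Some markers of microglia and of other cells were also called after I/R. The marker counts in the mean of both genotypes stand beside 9.61% of all genes called higher and 8.52% called lower. Of 9 measured monocyte markers 6 rose in the mean of both genotypes and 0 fell. Their mean level per array was 6.00 to 6.04 after I/R and 4.51 to 4.71 after sham in TLR4-/-, and 5.96 to 6.51 after I/R and 4.64 to 4.87 after sham in wild type. The 6 that rose were Vim (log2 change 3.06), Plac8 (3.05), Ms4a4c (2.78), Cd44 (1.47), S100a4 (1.38) and Chil3 (1.02). Chil3 averaged 3.70 after I/R and 2.84 after sham in TLR4-/-, and 4.09 and 2.91 in wild type. These means were all below the background limit, although the highest wild-type I/R array of Chil3, at 5.20, was above it. The defining marker Ccr2 was not called, at 5.55 after I/R and 5.77 after sham in TLR4-/-, and 6.34 and 5.94 in wild type.

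Of 9 microglia markers 7 fell and 0 rose, with mean levels of 10.89 to 11.00 after I/R and 11.31 to 11.45 after sham in TLR4-/-, and 10.85 to 11.09 and 11.29 to 11.42 in wild type. Of 9 border-associated macrophage markers 3 rose, Siglec1 (1.20), Folr2 (0.92) and Cbr2 (0.58), and 1 fell, Cd209f (-1.18). Their mean level was 6.80 to 7.25 after I/R and 6.51 to 7.24 after sham in TLR4-/-, and 7.25 to 7.87 and 7.11 to 7.53 in wild type. Of 6 endothelial markers 2 rose, Cdh5 (0.58) and Flt1 (0.37), and 1 fell, Pecam1 (-1.01). The mean of Flt1 over all arrays, 4.52, was below the background limit. Of the dendritic cell and astrocyte markers 1 each fell, of 7 and 6. None of the 9 neutrophil, 6 B cell, 8 T and NK cell, 4 oligodendrocyte or 6 neuron markers was called in the mean of both genotypes, and 1 neutrophil marker, Cxcr2, rose in wild type (0.54, limma adjusted p = 0.0436), with its means below background in every group. The part of these shifts in the changes of Tlr1, Tlr2, Tlr7, Tlr9 and Tlr12 was not tested.

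None of the 9 receptors passed the test between the genotypes. After I/R, 0 of the 9 genes were called between TLR4-/- and wild type by limma, against 0.0201% of all genes (4 genes), and 1, Tlr8, had an unadjusted p under 0.05 (1689 of all genes). After sham 0 were called, against 0.00502% (1 gene), and 0 had an unadjusted p under 0.05 (1045 of all genes). The difference between the I/R changes, TLR4-/- minus wild type, was called for 0 of the 9 and for 0% of all genes. None of the 9 and 762 of all genes had an unadjusted p under 0.05 there. No alternative called any of the 9 in these comparisons. The 9 border-associated macrophage markers were each lower in TLR4-/- than in wild type after I/R (median difference -0.51, 4 with an unadjusted p under 0.05) and after sham (median -0.22, 2 with an unadjusted p under 0.05), and 0 of them were called by limma. Their part in the receptor differences was not tested.

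The intervals show which genotype differences these arrays could not separate from 0. After I/R Tlr2 was at 10.20 ± 0.08 in TLR4-/- (SD, n = 3) and 10.01 ± 0.18 in wild type (SD, n = 4), a difference of 0.19 (95% interval -0.08 to 0.46, limma adjusted p = 0.671). The I/R change of Tlr2 was larger in TLR4-/- by 0.23, with an interval of -0.15 to 0.61. For Tlr9 the changes differed by -0.10 (-0.58 to 0.38), for Tlr1 by 0.14 (-0.21 to 0.50) and for Tlr12 by -0.10 (-0.67 to 0.47). Tlr8 had the widest interval after I/R, at 4.31 ± 0.63 in TLR4-/- (SD, n = 3) and 5.02 ± 0.39 in wild type (SD, n = 4), with a difference of -0.71 (-1.35 to -0.08, limma adjusted p = 0.566).

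**Figure D3:**
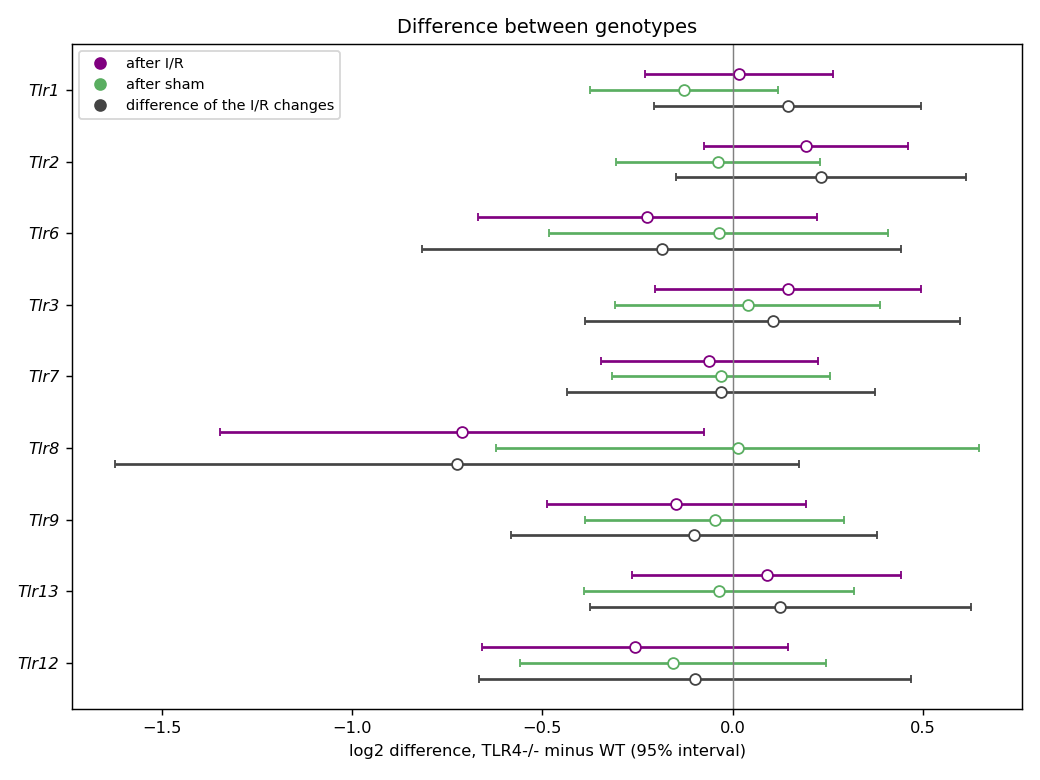
Log2 difference between TLR4-/- and wild type for each gene after I/R and after sham, and the difference between the I/R changes of the genotypes, with 95% intervals from limma; open points did not pass. All but 1 of the 27 intervals include 0, the exception being Tlr8 after I/R (-1.35 to -0.08).

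Genes that act with the receptors were read from the same fit. Of 67 listed, 61 were measured, and in the mean of both genotypes 10 rose and 11 fell after I/R (10 and 8 with centred arrays), again beside 9.61% and 8.52% of all genes. Their median change was -0.02. In the genotype comparisons 0 of the 61 were called by limma. Their unadjusted p was under 0.05 for 2 after I/R, 3 after sham and 2 for the difference of the changes. Over all 19938 genes these counts were 1689, 1045 and 762.

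Among 13 genes that carry, fold or cleave endosomal receptors, 2 rose and 4 fell, or 2 and 1 with centred arrays. Under centring the calls of Cnpy3 (adjusted p = 0.142), Hgs (0.105) and Ctss (0.0725) ended. The Ctss call also ended without both arrays that stood apart (-0.22, adjusted p = 0.0641). Unc93b1, whose product escorts TLR3, TLR7 and TLR9 to endosomes, averaged 9.43 ± 0.31 after I/R and 9.79 ± 0.05 after sham in TLR4-/- (SD, n = 3 each), and 9.45 ± 0.12 and 9.94 ± 0.17 in wild type (SD, n = 4 each). Its change in the mean of both was -0.43 (SE 0.10, limma adjusted p = 0.00537). Cnpy3, a chaperone gene for several of the receptors, fell by 0.40 on the log2 scale (limma adjusted p = 0.0478). That call ended in 13 of 22 alternatives (adjusted p between 0.0597 and 0.142), among them centred arrays and the removal of any 1 array other than wild-type I/R array B, wild-type sham array C or TLR4-/- I/R array D. Lrrc59, which in human cells aids the exit of TLR3 from the endoplasmic reticulum, rose by 0.48 (SE 0.10, limma adjusted p = 0.00234), and the cathepsin gene Ctsl by 0.27 (SE 0.07, limma adjusted p = 0.0103).

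Of 5 adaptor genes 1 fell, Tirap, which links TLR2 and TLR4 to MyD88. Tirap averaged 5.79 ± 0.21 after I/R and 6.49 ± 0.54 after sham in TLR4-/- (SD, n = 3 each), and 6.18 ± 0.14 and 6.59 ± 0.20 in wild type (SD, n = 4 each), a change of -0.55 in the mean of both (SE 0.14, limma adjusted p = 0.00956). Myd88 had a change of 0.01 (SE 0.11, limma adjusted p = 0.960). Of 14 kinase and ligase genes 3 rose and 3 fell. The kinase genes Map3k8 (0.60, SE 0.15) and Ikbke (0.46, SE 0.11) were among those that rose. The kinase-bridging Tab2 (-0.45, SE 0.12) and Irak2 (-0.39, SE 0.10), a kinase of the MyD88 complex, were among those that fell. The Tab2 call ended without both arrays that stood apart (-0.35, adjusted p = 0.0676). Ikbkg also fell, and without those 2 arrays its call ended too (-0.27 in that fit, adjusted p = 0.0840). The Ikbkg call ended as well without TLR4-/- I/R array D (0.0561) or TLR4-/- sham array B (0.0599).

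Of 9 transcription factor genes 1 rose and 2 fell. Irf7, which drives interferon genes downstream of TLR7 and TLR9 and is itself induced by interferon, averaged 7.50 ± 0.43 after I/R and 4.81 ± 0.37 after sham in TLR4-/- (SD, n = 3 each). In wild type it averaged 7.33 ± 0.60 after I/R and 5.41 ± 0.18 after sham (SD, n = 4 each), and the change in the mean of both was 2.30 (SE 0.19, limma adjusted p = 1.62e-07). Irf5, which also acts downstream of MyD88, changed by -0.48 (SE 0.09, limma adjusted p = 0.00118) and the AP-1 gene Jun by -0.93 (SE 0.10, limma adjusted p = 3.55e-06).

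Of 8 accessory genes 2 rose, Cd36 and Cd180. Cd36 encodes a scavenger receptor that passes lipid ligands to TLR2 with TLR6. In TLR4-/- it averaged 6.69 ± 0.13 after I/R and 5.81 ± 0.36 after sham (SD, n = 3 each). In wild type it averaged 7.49 ± 0.05 and 5.92 ± 0.14 (SD, n = 4 each). The change was 1.23 in the mean of both (SE 0.10, limma adjusted p = 1.63e-07), 0.88 in TLR4-/- and 1.57 in wild type. After I/R its TLR4-/- arrays, at 6.58 to 6.84, lay below the wild-type arrays, at 7.46 to 7.56. Cd36 was not called by limma between genotypes. Its difference after I/R, -0.80, was the largest in size of the 61 genes. How many of all genes separate in this way was not counted. Cd180, a relative of TLR4 without a signalling domain, rose by 0.33 (limma adjusted p = 0.0180), a call that ended without TLR4-/- sham array D (adjusted p = 0.0540). Of 12 negative regulators 2 rose and 1 fell. Trim30a, which in the mouse restrains signalling through TAB2 and TAB3, rose by 0.69 (SE 0.09, limma adjusted p = 5.35e-05). Rnf216, a ubiquitin ligase gene reported in human cells to promote degradation of Toll-like receptors, changed by -0.60 (SE 0.08, limma adjusted p = 2.52e-05). Nlrc3 rose by 0.37 (SE 0.11, limma adjusted p = 0.0203), which no longer passed without TLR4-/- I/R array C (0.0645) or TLR4-/- sham array B (0.0561).

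**Figure D4:**
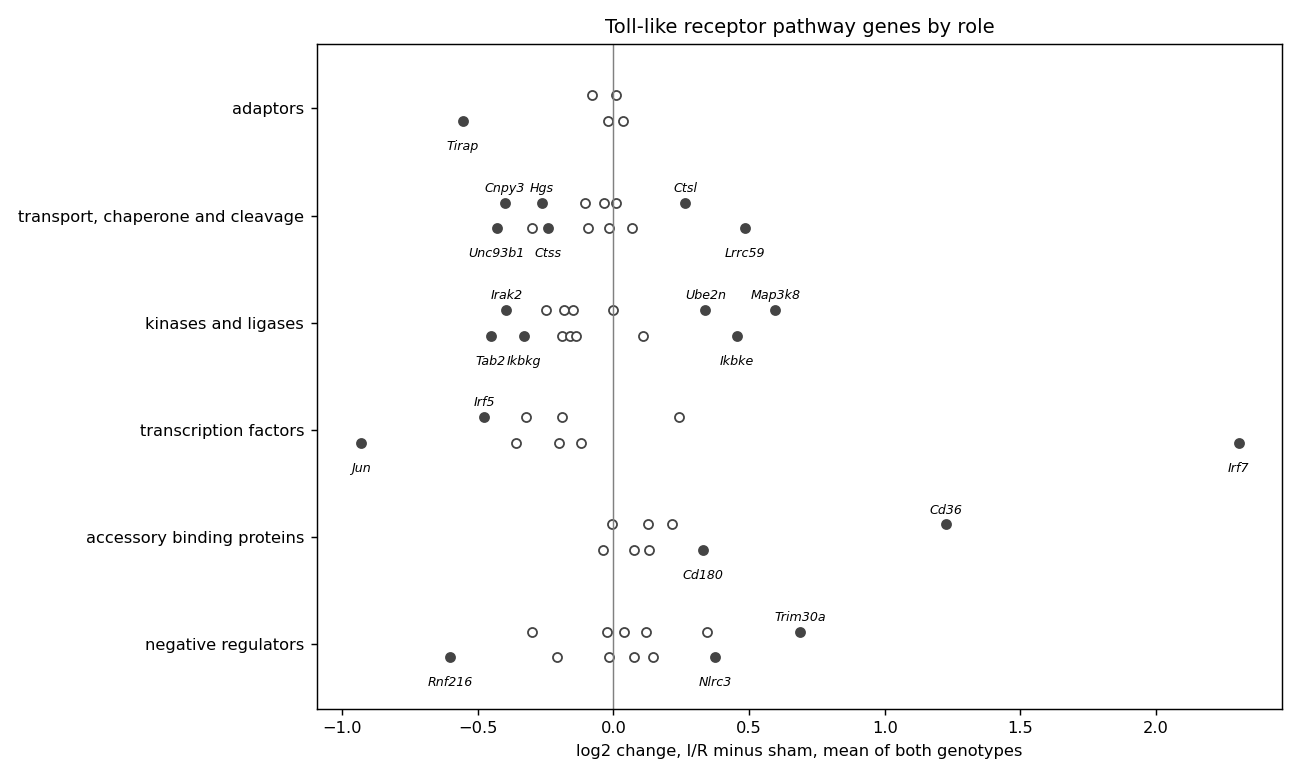
Log2 change after I/R in the mean of both genotypes for 61 genes that act with Toll-like receptors, by role; filled, named points passed at a limma adjusted p under 0.05. Irf7 (2.30) and Cd36 (1.23) lie furthest to the right and Jun (-0.93) furthest to the left.

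The genes whose pattern over the 14 arrays was most like each called receptor were named by Pearson's r, which here rests largely on the split between I/R and sham arrays, so r within each surgery (7 arrays each) is given too. Tlr2 was most like Gnptab (r = 0.98 over all arrays, 0.65 within I/R and 0.85 within sham), Xdh (0.98, 0.59 and 0.90) and Dut (0.98, 0.81 and 0.55). Tlr1 was most like Timeless (0.92, 0.83 and 0.73), Cycs (0.92, 0.40 and 0.79) and Sap30 (0.92, 0.73 and 0.70). Tlr9 was most like Lrrc61 (0.94, 0.82 and 0.85), the microglial adhesion receptor gene Adgrg1 (0.94, 0.85 and 0.94) and Lpin1 (0.94, 0.92 and 0.52). Tlr12 was most like Gimap1 (0.92, 0.92 and 0.77), Fance (0.92, 0.84 and 0.86) and Ptafr (0.92, 0.98 and 0.76). Tlr7 was most like Mtx3 (0.92, 0.75 and 0.95), Aftph (0.92, 0.72 and 0.90) and Stxbp3 (0.91, 0.81 and 0.92). The lowest of these within a surgery was that of Tlr1 with Cycs within I/R. These are descriptions across arrays that share their normalization.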

How the data were processed

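Gene expression was measured in 14 samples of sorted cortical microglia. The authors deposited log2 values. The submitters' processing notes name RMA and oligo, without versions; RMA corrects background, brings arrays to a common distribution and summarises probes. Medians of the arrays ran from 4.93 to 5.12, and the values were used as they stand. Arrays have no sequencing depth, and their number limits the precision.

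Of 35556 rows, 21789 carried 1 gene symbol in the platform annotation, 1621 several and 12146 none. The row with the highest mean stood for a gene, giving 19938 genes, and no filter on low signal was used. All arrays entered 1 linear model with 4 group means (limma 3.58.1, R 4.3.3, lmFit and eBayes), and p-values of 6 comparisons were adjusted by Benjamini-Hochberg over all genes. The mean of both genotypes weights the 2 changes equally. The procedure was tested on simulated data. Every listed receptor is named with its values. Of the pathway genes called in the mean of both genotypes or between genotypes, up to 4 per role with the largest change are named, and 3 genes of most similar pattern for each called receptor. The receptors and gene lists were chosen with earlier results of these data known. Promoter sequences are from RefSeq, GRCm38.p6.

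Arrays share the letters A to D between groups. Deviations from group means correlated at -0.10 to 0.28 between arrays of the same letter (18 pairs, median 0.04). Between others they correlated at -0.26 to 0.24 (55 pairs, median -0.005). The letters were not taken as pairs in the main fit. These correlations do not settle whether the letters mark pairs or a shared batch, which was not tested. Alternatives were centring, leaving out dim genes, trended and robust variance, array weights, only the compared groups, the replicate letter as a block, other rows per gene, single arrays left out and, added after the data were seen, both arrays that stood apart left out.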

Additional observations from a re-analysis of the deposited data

How the results depend on the processing

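The calls of Tlr1, Tlr2, Tlr9 and Tlr12 in the mean of both genotypes held in all 22 alternatives, and Tlr2 was also called in each genotype in all 23. No change of a called receptor turned its sign. Each receptor had 1 row, so other rows per gene left its values as they were, as did leaving out dim genes. Those settings could alter its test only through the other genes. The number of receptors called in TLR4-/- was 3, with 1 to 3 when single arrays were left out and 1 with the replicate block, and in wild type 1 to 3 when single arrays were left out and 1 with centred arrays, with only the compared groups and with the replicate block, Tlr2 being the one kept at 1. The replicate block ended the calls of Tlr1 (adjusted p = 0.0818) and Tlr9 (0.0791) in TLR4-/-, of Tlr9 in wild type (0.0575) and of Tlr7 in the mean of both genotypes (0.0682). Leaving out single arrays gave 4 or 5 in the mean of both genotypes and 0 in each genotype comparison. Over all genes, 1628 were called in TLR4-/- and 970 to 1888 without single arrays (970 without sham array A, 1071 without I/R array C), and 0 or 1 for the difference of the changes (1 without wild-type sham array C). Between genotypes after I/R, 4 genes were called as reported, 0 to 5 without single arrays, 1 without dim genes, 7 with array weights, and 0 with only the compared groups, with the replicate block or without both arrays that stood apart. After sham, 1 gene was called as reported, 0 to 10 without single arrays (10 without wild-type sham array C), 2 with trended and robust variance, array weights or the replicate block, 0 with only the compared groups and 10 without both arrays that stood apart. The causes of these moves were not tested. Signal close to background limits Tlr8, which was not tested when dim genes were left out.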

Other observations

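Pearson's r between receptor genes is described here over the 7 I/R arrays and over the 7 sham arrays, each of which holds both genotypes. Of the 36 pairs, 16 had r of opposite sign within the 2 surgeries. The highest r within sham, 0.87 for Tlr9 with Tlr13, stood beside -0.13 within I/R, and the lowest within sham, -0.78 for Tlr1 with Tlr7, beside 0.54. The highest r within I/R, 0.83 for Tlr7 with Tlr13, stood beside 0.44 within sham, and the lowest within I/R, -0.70 for Tlr2 with Tlr6, beside 0.30. Tlr9 and Tlr12, which both fell after I/R, had 0.80 within I/R and 0.66 within sham. Tlr1 and Tlr2, which both rose, had 0.39 and -0.22. The neighbours Tlr1 and Tlr6 had -0.70 and -0.15, and the neighbours Tlr7 and Tlr8 had 0.56 and 0.54. With 7 arrays such values are imprecise, and the arrays share their normalization. The highest and lowest pairs were picked from 36, a choice that by itself favours less extreme values in the other surgery. The share of opposite signs among gene pairs in general was not counted.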
